A study of Mus musculus with 62 samples.

Results

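The data here concern 7 genes of the renin-angiotensin system in the mouse neocortex, Agt, Ace, Agtrap, Atp6ap2, Lnpep, Enpep and Mas1, out of 47643 genes listed. They were chosen by gene symbol, by someone who had earlier results of these data in view, and which measured values entered that choice is not recorded. Their levels and differences are therefore given as descriptions of these libraries, and the tests, which run over all tested genes, are no independent support for the choice. All 7 passed the filter on level (a mean of at least 1 TPM over all libraries).

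The renin-angiotensin system is best known as the hormone cascade that controls blood pressure and salt balance. Renin cuts angiotensinogen to angiotensin I, angiotensin-converting enzyme turns that into angiotensin II, and aminopeptidases trim angiotensin II to shorter peptides. In the brain, angiotensinogen is made mainly by astrocytes, and its message is denser in hypothalamus and thalamus than in cortex. Angiotensin-(1-7), a shorter peptide of the same precursor, acts through the Mas receptor, which is abundant in hippocampus and forebrain.

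Neocortex poly(A) RNA came from female mice injected at 2 months of age, and the 62 libraries form 12 groups of 5, except for CAC at 8 weeks, which has 7. CAC mice received melanoma cells that cause cachexia (a wasting of muscle and fat seen in some cancers), NCAC mice received melanoma cells that do not, and mock mice a mock injection. Tissue was taken 2, 4, 6 and 8 weeks later. The design text gives the host as NCI Ath/nude, an athymic mouse that lacks mature T cells, whereas the sample labels give C57BL6/J, so the strain is uncertain. The melanoma lines are not named, and the protocol text speaks of LLC cells and 3 weeks, which match no group here. The labels call the libraries biological replicates without naming litters or cages, so p-values measure the spread between these libraries.

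Depth, as read from the steps between low TPM values, was 44.8 to 50.7 M reads in a library, and 1 TPM of Agt was worth 26.5 reads in the median library, 1 TPM of Enpep 65.9. TPM is transcript abundance per length, scaled to a sum of 1000000, so levels can be compared between genes. Markers of cortical excitatory neurons averaged 6.31 to 7.67 as mean log2(TPM + 1) across the 62 libraries. There were 3 libraries that stood apart in markers of other tissue. CAC at 4 weeks replicate 1 was the lowest in striatum markers, at 3.26 as mean log2(TPM + 1). All other libraries had 5.16 to 6.83, so they carried striatum markers at high levels. CAC at 8 weeks replicate 3 was the highest in erythroid markers (11.1). Mock at 2 weeks replicate 5 was the highest in the thalamus gene Prkcd (113 TPM) and the hypothalamus gene Pmch (352 TPM). The libraries of 2 weeks came from lane 3 and those of 6 and 8 weeks from lane 4. At 4 weeks the CAC libraries came from lane 3 and the mock libraries from lane 4. The NCAC libraries of 4 weeks came from lane 3, except for replicate 5 from lane 4. In bulk tissue, fewer cells of a type and less RNA per cell cannot be told apart.

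Levels differed widely between members. Atp6ap2 was the most abundant, with a mean of 255 TPM over all libraries and a range of 200 to 301 TPM. Lnpep followed with 29.7 TPM, Agt with 26.2 TPM, Ace with 16.0 TPM, Mas1 with 12.6 TPM, Agtrap with 7.54 TPM and Enpep with 2.20 TPM. Relative to its level Agt varied most, from 9.22 to 110 TPM, whereas Agtrap ranged from 6.02 to 10.1 TPM. Every member was detected in all 62 libraries.

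Agt encodes angiotensinogen, the precursor of all angiotensin peptides (chromosome 8, 124556534 to 124569706, minus strand, GRCm38). At 8 weeks it was higher in CAC neocortex. It measured 55.7, 37.2, 16.9, 22.9, 39.0, 40.5 and 39.3 TPM in CAC libraries, 20.8, 19.96, 20.01, 14.8 and 9.70 TPM in NCAC libraries, and 13.9, 17.7, 16.5, 12.8 and 14.8 TPM in mock libraries. Of the 7 CAC libraries, 6 lay above every NCAC and every mock library, and replicate 3 lay within both ranges. The means were 35.9 ± 12.7 TPM in CAC (SD, n = 7), 17.1 ± 4.76 TPM in NCAC and 15.1 ± 1.95 TPM in mock (SD, n = 5 each), so the CAC mean was 2.37 times the mock mean. On the log2(TPM + 1) scale CAC exceeded mock by 1.12 ± 0.33 (SE; 95% interval 0.46 to 1.77; limma, adjusted p = 0.0218). The call was lost with the replicate number as a block (1.03, adjusted p = 0.102) and on leaving out any of CAC replicates 1 and 6 and mock replicates 1 and 4 (adjusted p of 0.0508 to 0.0659). CAC exceeded NCAC by 1.00 ± 0.33, which did not pass (limma, adjusted p = 0.0554). It passed when CAC replicate 3 (adjusted p = 0.0155) or NCAC replicate 3 (adjusted p = 0.0435) was left out.

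The promoters of Agt and Mas1 are shown because these are the members called at 8 weeks. Each window runs from 250 bases before to 50 bases after the annotated start, 5′ to 3′ on the strand of the gene, as given by RefSeq for GRCm38.p6, where all 7 members have an entry. Capitals mark matches on either strand to AGAACA (a partial site of the glucocorticoid receptor), TTCNNNGAA (a STAT-type motif), TTGCNNAA (a C/EBP-type motif) and TATAAA. These letters occur in 19.0%, 8.3%, 10.8% and 13.6% of all 32851 promoter windows, in that order.
Agt, chr8:124569657-124569956, minus strand: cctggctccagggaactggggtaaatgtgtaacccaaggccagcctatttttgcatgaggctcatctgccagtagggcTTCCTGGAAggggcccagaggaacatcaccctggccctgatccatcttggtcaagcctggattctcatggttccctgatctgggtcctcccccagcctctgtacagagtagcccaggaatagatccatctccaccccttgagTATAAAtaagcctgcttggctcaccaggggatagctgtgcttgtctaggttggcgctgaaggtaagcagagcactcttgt
Mas1, chr17:12868094-12868393, minus strand: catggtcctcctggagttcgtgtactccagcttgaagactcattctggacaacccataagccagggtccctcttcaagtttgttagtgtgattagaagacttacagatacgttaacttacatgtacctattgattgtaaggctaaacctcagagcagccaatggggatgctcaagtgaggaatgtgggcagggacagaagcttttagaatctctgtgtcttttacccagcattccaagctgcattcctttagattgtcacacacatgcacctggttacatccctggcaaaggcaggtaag
The Agt window holds TTCNNNGAA starting at -172 and TATAAA at -30 relative to the start, and the Mas1 window holds none of the 4 motifs. A match is a description of the letters, not a binding site.

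**Figure D1:**
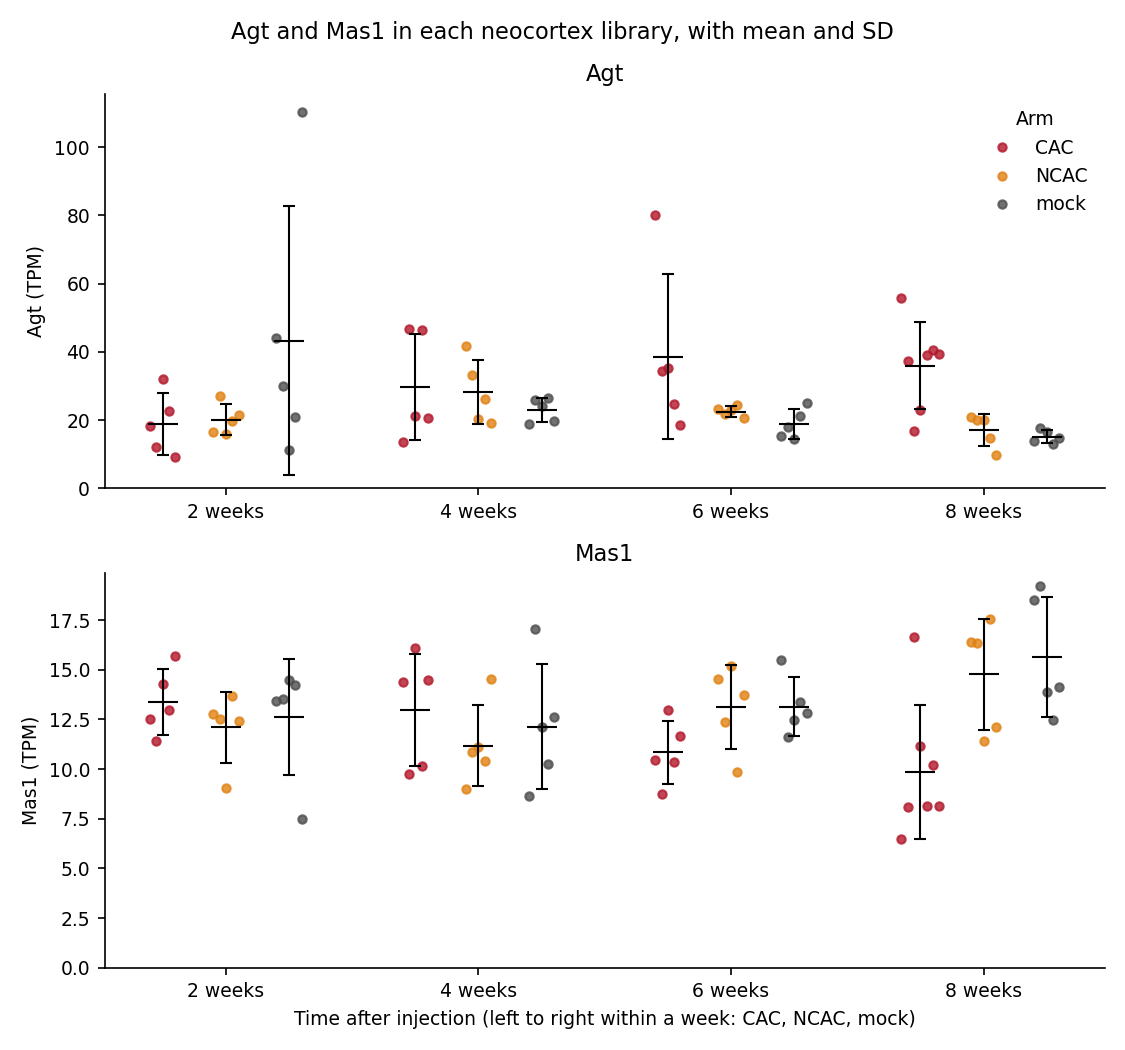
Agt (top) and Mas1 (bottom) in TPM in each of the 62 libraries, by week after injection and, within a week, CAC, NCAC and mock from left to right; points are libraries, black bars the mean and SD of a group. At 8 weeks 6 of 7 CAC libraries lie above all mock libraries for Agt and below all mock libraries for Mas1.

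In the earlier weeks the Agt groups overlapped. At 2 weeks Agt measured 18.1, 11.99, 32.1, 22.6 and 9.22 TPM in CAC libraries, 16.4, 27.1, 15.9, 19.7 and 21.3 TPM in NCAC libraries, and 43.9, 30.1, 11.1, 20.8 and 110 TPM in mock libraries. At 6 weeks it measured 80.1, 34.3, 35.1, 24.8 and 18.6 TPM in CAC libraries, 23.1, 21.7, 22.9, 24.4 and 20.5 TPM in NCAC libraries, and 15.4, 17.8, 14.4, 21.2 and 25.1 TPM in mock libraries. The lowest 2-week value was in CAC and the highest, by a wide margin, in mock replicate 5, whereas at 6 weeks the highest was CAC replicate 1. CAC differed from mock by -0.87 ± 0.35 at 2 weeks (log2, SE; limma, adjusted p = 0.132), by 0.21 ± 0.35 at 4 weeks (adjusted p = 0.842) and by 0.85 ± 0.35 at 6 weeks (adjusted p = 0.237), and none of these passed. Without mock replicate 3, the lowest mock library of 2 weeks, the 2-week difference was -1.24 and passed (adjusted p = 0.027). The change of the CAC minus mock difference between 2 and 8 weeks was 1.99 ± 0.48 (limma, adjusted p = 0.0249). Without the 11 libraries in which Prkcd or Pmch exceeded 4 times its median it was 1.24 (adjusted p = 0.589). These 11 include mock replicates 1, 2 and 5 and CAC replicates 1 and 3 of 2 weeks, so the 2-week groups were smaller in that fit. Without mock at 2 weeks replicate 5 alone the change was 1.56 (adjusted p = 0.0945). Leaving out CAC replicate 5 or mock replicate 1 of 2 weeks, or CAC replicate 1 of 8 weeks, also ended the call (adjusted p of 0.0506 to 0.0866). CAC and mock shared a lane within each of these weeks, and a lane effect that differs by arm cannot be told apart from week. The changes from 4 to 8 weeks (0.91 ± 0.48) and from 6 to 8 weeks (0.27 ± 0.48) did not pass. At 4 weeks CAC and mock differed in lane, so arm cannot be told apart from lane in that week's difference and in its change to 8 weeks.

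Ordered by mean level, mock at 2 weeks came highest for Agt (43.3 ± 39.4 TPM), followed by CAC at 6 weeks (38.6 ± 24.2 TPM) and CAC at 8 weeks (35.9 ± 12.7 TPM), and mock at 8 weeks came lowest. No step between neighbours in that order exceeded the larger of their SDs. CAC at 4 weeks averaged 29.7 ± 15.6 TPM, NCAC at 4 weeks 28.2 ± 9.47 TPM and mock at 4 weeks 23.0 ± 3.58 TPM (SD, n = 5 each).

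Agt is also dense in thalamus and hypothalamus, so it was set beside Prkcd, a protein kinase C gene abundant in thalamus, and Pmch, the melanin-concentrating hormone precursor of the lateral hypothalamus, library by library. The highest Agt values were 80.1 TPM in CAC at 6 weeks replicate 1, which had Pmch at 155 TPM, and 110 TPM in mock at 2 weeks replicate 5, which had Pmch at 352 TPM. NCAC at 4 weeks replicate 1 had Agt at 41.8 TPM with Prkcd at 34.1 and Pmch at 101 TPM. Over 62 libraries Agt followed Prkcd with Pearson r of 0.553 and Spearman rho of 0.406 (0.352 without the 2 libraries farthest from the median of the marker, 0.675 within lane 3 and 0.384 within lane 4). A few libraries lie far above the rest in Pmch, so no pooled value is given for it. In the 51 libraries high in neither marker, meaning at most 4 times its median, r was 0.272 and rho 0.285 for Prkcd, and 0.247 and 0.32 for Pmch. For the mean of the hypothalamus markers r was 0.624 and rho 0.434 over 62 libraries (0.483 without the 2 farthest, 0.708 and 0.525 within lanes 3 and 4). For the thalamus markers they were 0.525 and 0.311 (0.27 without the 2 farthest, 0.712 and 0.225 within lanes). For the cortical excitatory neuron markers they were -0.486 and -0.315 (-0.24 without the 2 farthest, -0.718 and -0.041 within lanes). Agt also followed the mean of the hippocampus markers (r of 0.605, rho of 0.597; 0.609 without the 2 farthest, 0.603 within lane 3 and 0.653 within lane 4) and of the glucocorticoid-responsive genes (r of 0.531, rho of 0.489; 0.473 without the 2 farthest, 0.342 within lane 3 and 0.737 within lane 4). The libraries share groups and lanes, so these are descriptions without a test.

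At 8 weeks Pmch was 0.772 to 2.22 TPM in CAC, 0.657 to 4.96 TPM in NCAC and 0.584 to 1.35 TPM in mock, and NCAC replicate 1, at 4.96 TPM, exceeded 4 times the median over all libraries. Prkcd measured 16.2, 7.21, 6.05, 7.13, 36.9, 7.65 and 9.24 TPM in CAC libraries, 14.9, 10.1, 9.45, 5.39 and 5.71 TPM in NCAC libraries, and 5.83, 6.45, 16.8, 5.28 and 10.2 TPM in mock libraries, in the order of the Agt values above. The groups overlapped, the highest Prkcd value was in CAC replicate 5, and CAC replicate 1, the highest in Agt, came second among the CAC libraries. With Prkcd and Pmch as terms in the model, Agt exceeded mock by 1.01 in CAC at 8 weeks (limma, adjusted p = 0.0037), and without the 11 libraries high in either marker by 1.08 (adjusted p = 0.00258). The difference from NCAC at 8 weeks was 0.96 with these terms and passed (adjusted p = 0.00749). Of 10 tested thalamus markers and 8 tested hypothalamus markers none was called in CAC against mock at 8 weeks, and Prkcd itself differed by 0.34 ± 0.44 (adjusted p = 0.712).

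**Figure D2:**
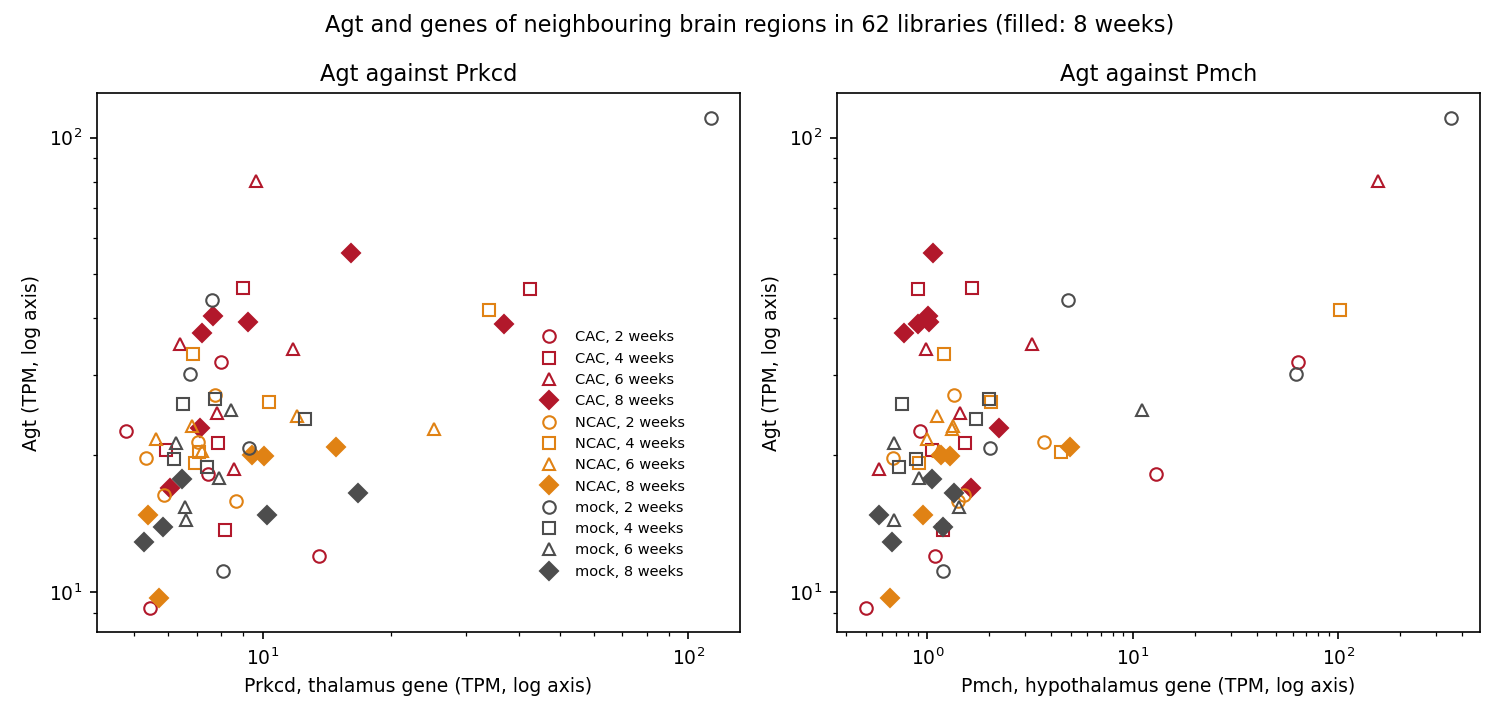
Agt against Prkcd (left) and Pmch (right) in TPM on log axes, 1 point per library; colour gives the arm, shape the week, and filled diamonds are the 8-week libraries. At 8 weeks 6 of 7 CAC libraries lie above all mock libraries in Agt. In both groups Pmch is at or below 2.22 TPM. Prkcd is 36.9 TPM in CAC replicate 5 and 16.2 TPM in CAC replicate 1, the highest in Agt, and up to 16.8 TPM in mock. Mock at 2 weeks replicate 5 lies at the far right of both panels.

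Of all 14491 tested genes, 712 were called higher and 535 lower in CAC against mock at 8 weeks. Other lists with called genes in that comparison were these. Of 4 tested hippocampus markers, Spink8 was higher in CAC than in mock (1.29 ± 0.36, limma, adjusted p = 0.0158) and the other 3 did not pass, and the mean log2(TPM + 1) of the tested list was 2.90 to 3.45 in CAC, 2.50 to 3.05 in NCAC and 2.64 to 2.97 in mock. Of 14 astrocyte markers, 2 were higher in CAC, Gjb6 (0.57) and Aldoc (0.21), and 3 were lower, among them the water channel gene Aqp4 (-0.71) and S100b (-0.28). Of 12 endothelial markers, 3 were higher in CAC, Vwf (0.94), Ly6c1 (0.86) and Slc2a1 (0.64), and 2 were lower, Kdr (-0.78) and Tie1 (-0.31). Of 9 meningeal fibroblast markers, 1 was higher, Fmod (0.61), and 2 were lower, Lum (-0.47) and Col3a1 (-0.42). Glucocorticoid-responsive genes were higher in 14 of 16 cases, with Fkbp5 at 1.44 ± 0.23, and acute-phase and cytokine-response genes in 9 of 12, with Lcn2 at 1.92 ± 0.21. The part of these in the Agt difference was not tested.

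Mas1 encodes the Mas receptor of angiotensin-(1-7) (chromosome 17, 12841079 to 12868143, minus strand, GRCm38), and it was lower in CAC neocortex at 8 weeks. It measured 6.51, 8.08, 16.7, 11.2, 8.13, 10.2 and 8.16 TPM in CAC libraries, 16.4, 16.4, 11.4, 17.6 and 12.1 TPM in NCAC libraries, and 18.5, 19.2, 13.9, 12.5 and 14.1 TPM in mock libraries. Of the 7 CAC libraries, 6 lay below every NCAC and every mock library, and replicate 3 lay within both ranges. The means were 9.84 ± 3.38 TPM in CAC (SD, n = 7), 14.8 ± 2.80 TPM in NCAC and 15.6 ± 3.03 TPM in mock (SD, n = 5 each), which puts CAC at 0.629 times mock and at 0.666 times NCAC. Mas1 was lower by 0.65 ± 0.16 against mock (log2 difference -0.65, SE; 95% interval -0.97 to -0.34; limma, adjusted p = 0.00512), and this call held in 22 of 22 alternatives. Against NCAC the difference was -0.57 ± 0.16 (adjusted p = 0.0182). That call was lost in 7 of 22 alternatives, among them the replicate block (-0.55, adjusted p = 0.0922), a fit of the compared groups alone (adjusted p = 0.112) and leaving out the libraries high in Prkcd or Pmch (-0.50, adjusted p = 0.0867). The others were leaving out CAC replicate 1 or NCAC replicate 1, 2 or 4 (adjusted p of 0.0569 to 0.0785).

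The library that went against the others for both Agt and Mas1 at 8 weeks was CAC replicate 3. It was the library with the highest erythroid markers (11.1 as mean log2(TPM + 1), against 4.15 to 7.60 in the other CAC libraries of 8 weeks), and its glucocorticoid-responsive genes averaged 5.43, against 5.94 to 6.48 in the other 6. Its acute-phase and cytokine-response genes averaged 3.06, against 3.13 to 3.39 in the other 6 and 2.22 to 2.85 in mock libraries of 8 weeks. Without it, Agt exceeded mock by 1.28 (limma, adjusted p = 0.00596) and NCAC by 1.16 (adjusted p = 0.0155), and Mas1 fell by 0.78 against mock (adjusted p = 0.000244). These fits were chosen with the library's values in view.

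In the earlier weeks Mas1 did not pass. At 6 weeks CAC averaged 10.8 ± 1.59 TPM, NCAC 13.1 ± 2.10 TPM and mock 13.2 ± 1.47 TPM (SD, n = 5 each), a difference from mock of -0.26 ± 0.17 (log2, SE; limma, adjusted p = 0.531). The 2 lowest group means among the 12 were CAC at 8 and at 6 weeks, and mock at 8 weeks was the highest. The change of the CAC minus mock difference between 2 and 8 weeks was -0.75 ± 0.23 and did not pass (limma, adjusted p = 0.087). That between 4 and 8 weeks, where arm and lane cannot be told apart at 4 weeks, did not pass either (-0.75 ± 0.23, adjusted p = 0.329). Without CAC at 8 weeks replicate 3 the change from 2 to 8 weeks was -0.88 and passed (limma, adjusted p = 0.0148). Mas1 was 7.49 TPM in mock at 2 weeks replicate 5, the library richest in Prkcd and Pmch, against 13.4 to 14.5 TPM in the other 4 of its group. Over 62 libraries it ran against Prkcd (r of -0.464, rho of -0.428; r of -0.386 without the 2 farthest) and against the glucocorticoid-responsive genes (r of -0.588, rho of -0.533; r of -0.531 without the 2 farthest). Within lanes 3 and 4, r was -0.714 and -0.331 for Prkcd and -0.406 and -0.686 for the glucocorticoid-responsive genes.

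Ace encodes angiotensin-converting enzyme (chromosome 11, 105967945 to 105989964, plus strand), which in the brain sits on vessel walls, in choroid plexus and on striatal projection neurons. At 8 weeks it measured 31.5, 16.9, 11.2, 17.6, 11.4, 36.0 and 33.0 TPM in CAC libraries, 14.7, 14.2, 15.4, 15.4 and 25.5 TPM in NCAC libraries, and 14.5, 14.3, 15.1, 15.6 and 14.5 TPM in mock libraries. The CAC libraries spread far more widely than the mock libraries, with 5 above and 2 below all of them. CAC averaged 22.5 ± 10.6 TPM (SD, n = 7) and mock 14.8 ± 0.53 TPM (SD, n = 5), a log2 difference of 0.44 ± 0.25 that did not pass (limma, adjusted p = 0.285).

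The 3 CAC libraries highest in Ace at 8 weeks, replicates 1, 6 and 7, had choroid plexus markers at 3.92, 3.85 and 4.02 as mean log2(TPM + 1), whereas the other 4 had 1.76 to 1.92. In NCAC the markers were at 3.12 to 3.84 and in mock at 3.05 to 3.88, with Ace at 14.2 to 15.6 TPM in all of these libraries except NCAC replicate 5. Mock replicate 4, for example, had choroid plexus markers at 3.88 and Ace at 15.6 TPM. With the choroid plexus and striatum scores as terms, a fit chosen after seeing the data, Ace was higher in CAC by 0.68 against mock (limma, adjusted p = 0.000468) and by 0.61 against NCAC (adjusted p = 0.00231) at 8 weeks, and by 0.52 against mock (adjusted p = 0.0343) and 0.57 against NCAC (adjusted p = 0.0105) at 6 weeks. That fit takes the slope of Ace on each score to be the same in every group. At 8 weeks no mock or NCAC library had a choroid plexus score as low as those of the 4 CAC libraries at 1.76 to 1.92. The adjusted 8-week differences therefore rest on the assumed slope. Over 62 libraries Ace followed the choroid plexus markers with r of 0.689 and rho of 0.764 (0.70 without the 2 farthest, 0.852 within lane 3 and 0.608 within lane 4).

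At 2 weeks Ace was 17.9, 14.2, 15.5, 17.2 and 16.0 TPM in NCAC libraries and 12.2, 8.90, 7.48, 8.95 and 12.9 TPM in mock libraries. The difference of 0.65 ± 0.27 (log2, SE) did not pass (limma, adjusted p = 0.103). Among the alternatives it passed only with Prkcd and Pmch as terms (0.82, adjusted p = 0.0463). Mock at 2 weeks had the lowest Ace mean of the 12 groups (10.1 ± 2.34 TPM), with CAC at 2 weeks next (12.7 ± 2.40 TPM). Choroid plexus markers moved with Ace, at 3.38 to 3.91 in NCAC and 1.58 to 3.18 in mock. Of all 14491 tested genes, 851 were called higher in NCAC than in mock. So were 3 of 10 choroid plexus markers (Kl, Kcnj13 and Cldn2, named after their values were seen). Their part in the Ace difference was not tested.

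**Figure D3:**
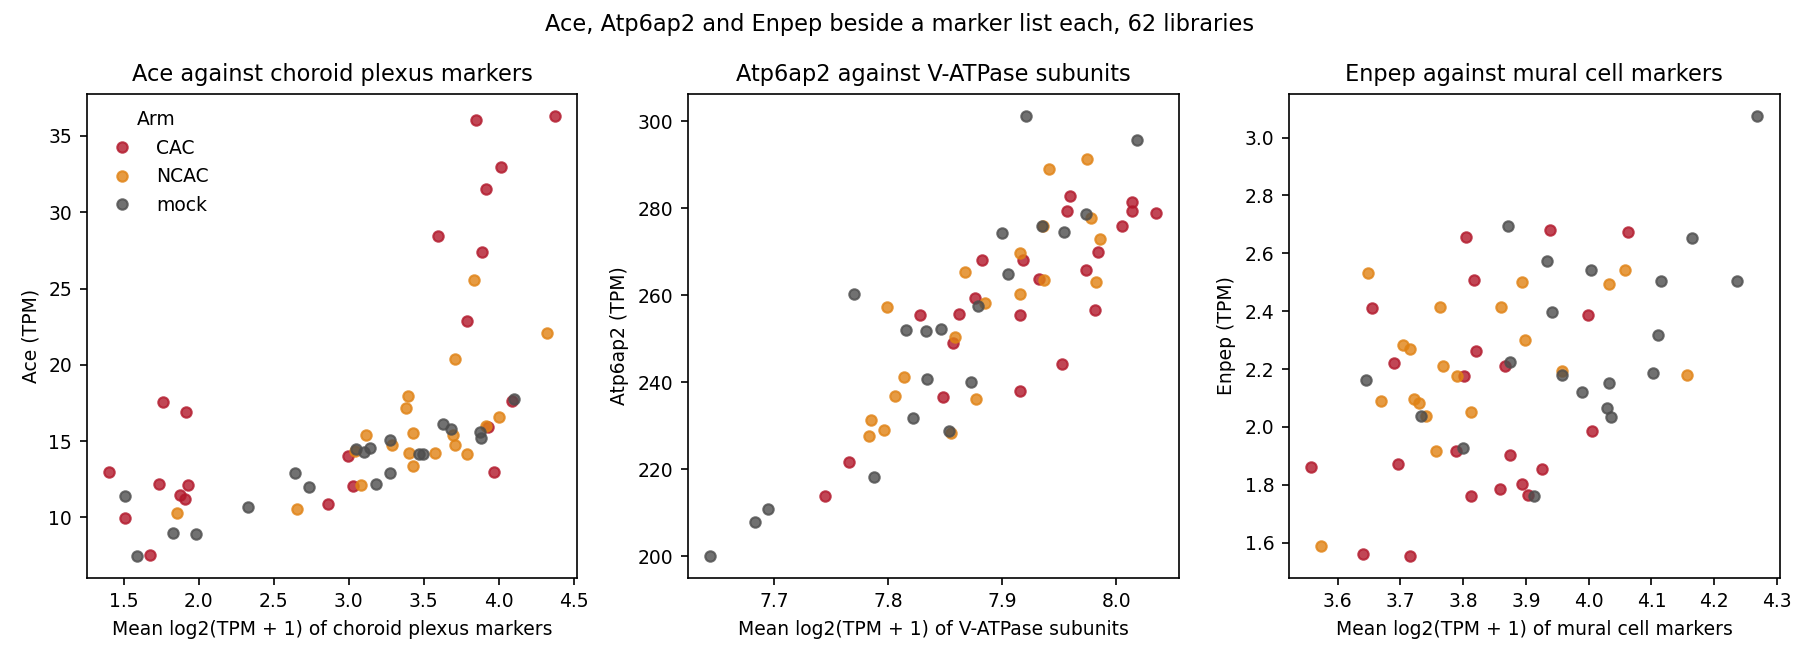
Ace against choroid plexus markers, Atp6ap2 against subunits of the vacuolar proton pump and Enpep against mural cell markers, each as TPM on the vertical axis and the mean log2(TPM + 1) of the list on the horizontal axis, 1 point per library, coloured by arm. The 6 libraries with Ace above the highest NCAC value of 25.5 TPM are CAC libraries with choroid plexus scores of 3.60 to 4.38.

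Enpep and Lnpep encode the aminopeptidases that act after angiotensin II. Enpep is aminopeptidase A, which turns angiotensin II into angiotensin III and is carried by vessel-associated cells (chromosome 3, 129269175 to 129332720, minus strand). At 2 weeks it was 2.09, 1.59, 2.18, 2.18 and 1.92 TPM in NCAC libraries and 2.19, 2.50, 3.08, 2.32 and 2.65 TPM in mock libraries. NCAC averaged 1.99 ± 0.25 TPM and mock 2.55 ± 0.34 TPM (SD, n = 5 each), a log2 difference of -0.25 ± 0.08 (SE; limma, adjusted p = 0.0479) that was called in 7 of 20 alternatives. Leaving out NCAC replicate 1, 2 or 5 or mock replicate 2, 3 or 5 ended the call (adjusted p of 0.0714 to 0.191). Mock at 2 weeks had the highest Enpep mean of the 12 groups, and CAC at 2 weeks averaged 2.085 ± 0.34 TPM. Vessel cell markers moved with Enpep: 7 of 11 mural and 6 of 12 endothelial markers were called lower in NCAC than in mock. Of all 14491 tested genes, 411 were called lower in that comparison. The mean log2(TPM + 1) of the mural list was 3.57 to 4.16 in NCAC and 4.10 to 4.27 in mock, and their part in the Enpep difference was not tested.

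At 6 weeks Enpep was 1.90, 1.56, 1.92, 1.80 and 1.86 TPM in CAC libraries and 2.05, 2.49, 2.28, 2.21 and 2.50 TPM in NCAC libraries. The difference of -0.24 ± 0.08 did not pass (limma, adjusted p = 0.053). It passed under TMM scaling (-0.30, adjusted p = 0.0222), without the 3 libraries that stand apart (adjusted p = 0.0465), without NCAC replicate 1 (adjusted p = 0.0334) and with the choroid plexus and striatum scores as terms (adjusted p = 0.0464). At 8 weeks the CAC, NCAC and mock means were 2.37 ± 0.34, 2.28 ± 0.21 and 2.34 ± 0.24 TPM, and CAC against mock was 0.01 (95% interval -0.14 to 0.16). Over 62 libraries Enpep followed the mural cell markers with r of 0.464 and rho of 0.386 (0.384 without the 2 farthest, 0.593 within lane 3 and 0.346 within lane 4), and the endothelial markers with r of 0.391 and rho of 0.282 (0.285 without the 2 farthest, 0.66 within lane 3 and 0.136 within lane 4).

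Lnpep encodes insulin-regulated aminopeptidase, the binding site of angiotensin IV (chromosome 17, 17521410 to 17625050, minus strand). It averaged 36.8 ± 6.10 TPM in CAC, 31.8 ± 8.84 TPM in NCAC and 35.4 ± 2.69 TPM in mock at 8 weeks, and the differences of CAC from mock (0.04, 95% interval -0.36 to 0.44) and from NCAC (0.24, -0.16 to 0.64) did not pass. The lowest library of all was CAC at 4 weeks replicate 1 with 11.5 TPM, which was also the lowest in striatum markers. The highest was CAC at 8 weeks replicate 7 with 44.0 TPM.

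Agtrap encodes a protein that binds the angiotensin type 1 receptor and draws it into the cell (chromosome 4, 148077061 to 148088031, minus strand). Group means ran from 7.12 ± 0.84 TPM in CAC at 4 weeks to 8.28 ± 1.46 TPM in mock at 2 weeks. At 8 weeks Agtrap averaged 7.73 ± 0.60 TPM in CAC, 7.30 ± 0.64 TPM in NCAC and 7.94 ± 0.56 TPM in mock, and CAC against mock was -0.03 (95% interval -0.20 to 0.13). The highest single value, 10.1 TPM, was in mock at 2 weeks replicate 5.

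Atp6ap2 encodes the (pro)renin receptor, which is also an accessory subunit of the vacuolar proton pump (chromosome X, 12587801 to 12617049, plus strand). At 2 weeks it was 279, 255, 256, 214 and 238 TPM in CAC libraries, 260, 278, 228, 231 and 263 TPM in NCAC libraries, and 211, 208, 200, 218 and 260 TPM in mock libraries, of which replicate 5 was the highest. NCAC exceeded mock by 0.20 ± 0.07 (log2, SE; limma, adjusted p = 0.0617) and CAC exceeded mock by 0.18 ± 0.07 (adjusted p = 0.126), neither of which passed. Mock at 2 weeks had the lowest Atp6ap2 mean of the 12 groups (219.5 ± 23.75 TPM). Without mock replicate 5, NCAC exceeded mock by 0.26 (limma, adjusted p = 0.0266). Without NCAC replicate 3 (0.24, adjusted p = 0.0337) or NCAC replicate 4 (0.23, adjusted p = 0.0344) it also passed, as did CAC against mock without CAC replicate 4 (0.23, adjusted p = 0.0385). With Prkcd and Pmch as terms both passed (limma, NCAC 0.29, adjusted p = 0.00895, CAC 0.24, adjusted p = 0.0381). NCAC against mock passed under TMM scaling (0.18, adjusted p = 0.0327) and without the 3 libraries that stand apart (0.26, adjusted p = 0.024). In the other alternatives neither passed. At 2 weeks 10 of 16 subunits of the pump were called higher in NCAC than in mock. Among them were Atp6v1d at 0.28 ± 0.06, Atp6v1e1 at 0.21 ± 0.05, Atp6v1b2 at 0.24 ± 0.06 and Atp6v1g2 at 0.28 ± 0.07. In CAC against mock at 2 weeks 5 of 16 were called higher. Of all 14491 tested genes, 851 were called higher in NCAC and 533 in CAC, each against mock at 2 weeks. Over 62 libraries Atp6ap2 followed the pump subunits with r of 0.845 and rho of 0.829 (0.804 without the 2 farthest, 0.840 within lane 3 and 0.772 within lane 4). At 8 weeks 0 of 16 subunits were called in CAC against mock, and Atp6ap2 averaged 268 ± 12.1 TPM in CAC, 272 ± 13.0 TPM in NCAC and 263 ± 24.7 TPM in mock, with a log2 difference of CAC from mock of 0.03 (95% interval -0.10 to 0.16).

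**Figure D4:**
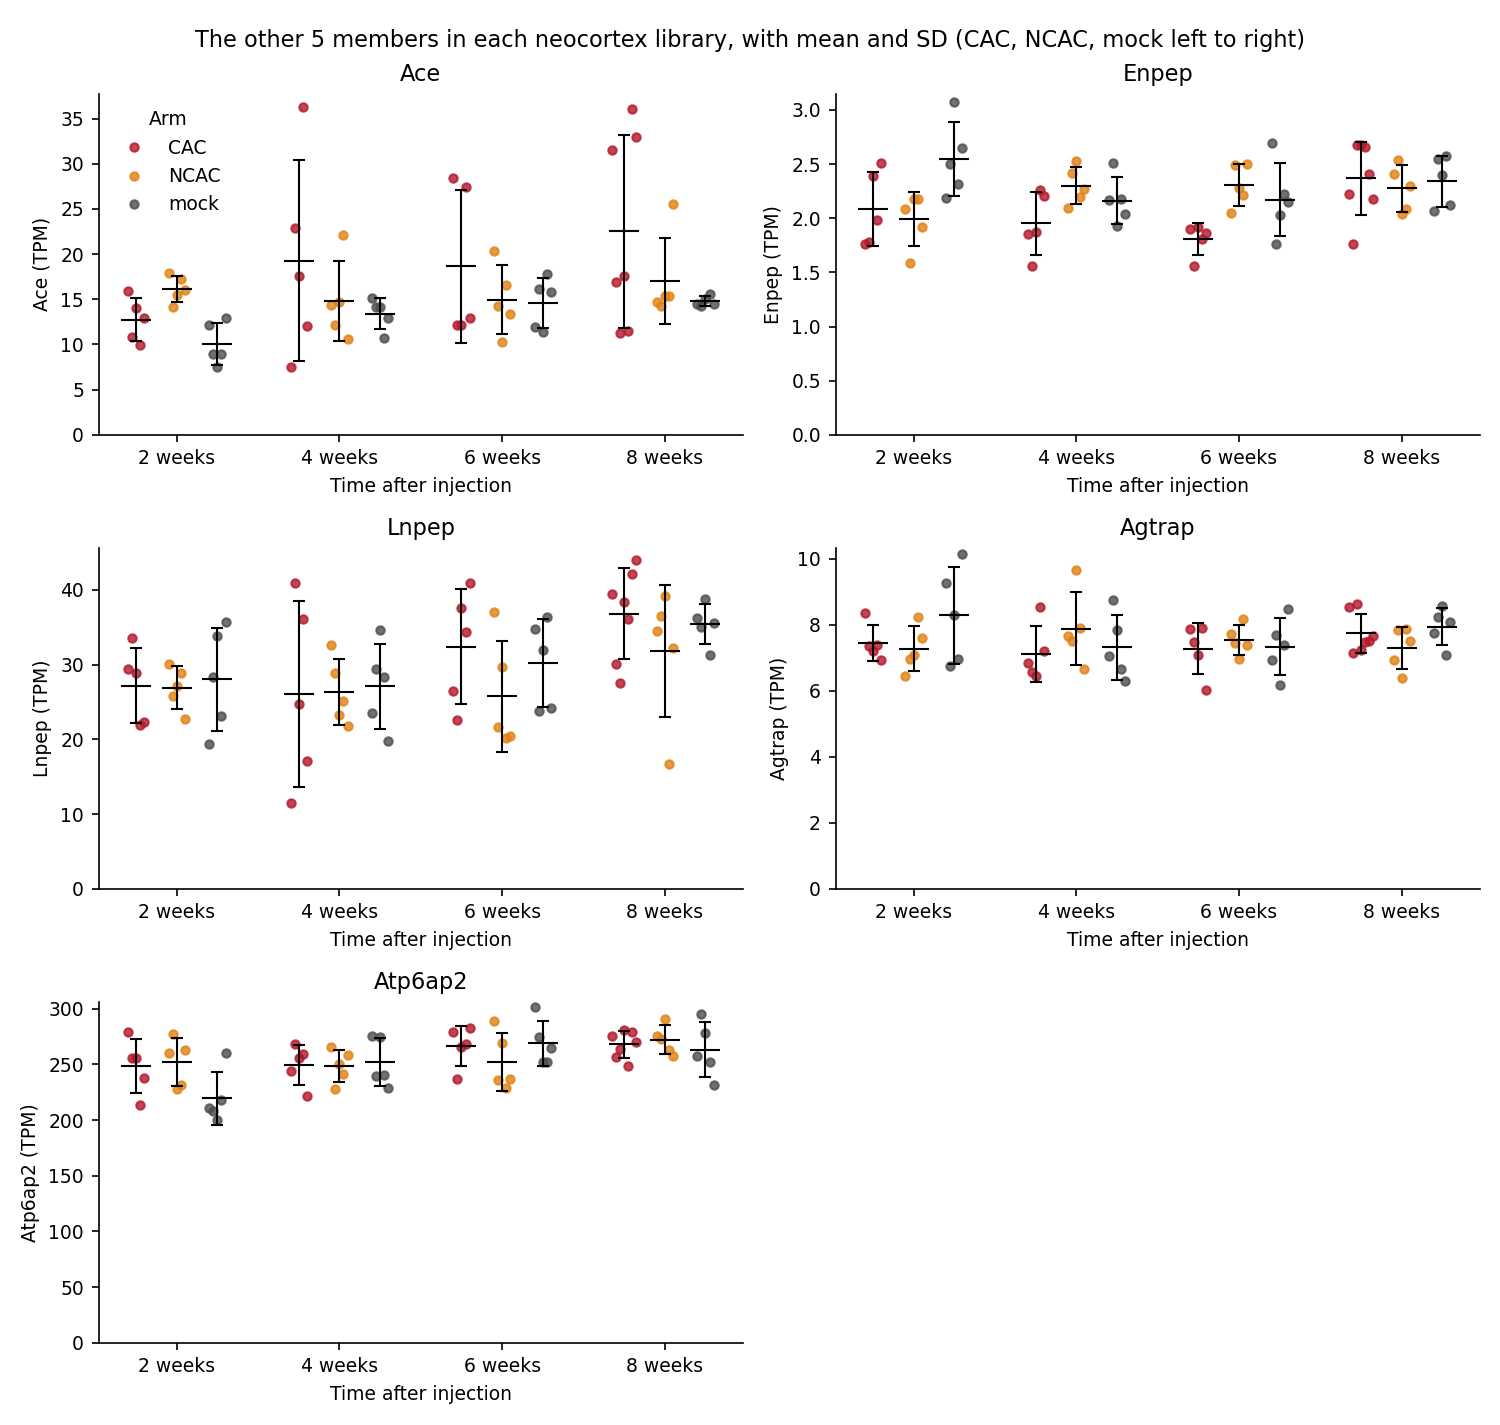
Ace, Enpep, Lnpep, Agtrap and Atp6ap2 in TPM in each library, by week and, within a week, CAC, NCAC and mock from left to right; points are libraries, black bars mean and SD. The CAC libraries spread widely in Ace from 4 weeks on, while Agtrap stays between 6.02 and 10.1 TPM throughout.

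The members that were called, set against the share of all 14491 tested genes called in either direction in the same comparison, were as follows, and since the members were chosen with results in view nothing is read from the shares. In CAC against mock, 2 of 7 were called at 8 weeks (8.61% of all tested genes), and 0 of 7 at 2 weeks (4.28%), at 4 weeks (0.0414%) and at 6 weeks (1.63%), where 3, 0 and 2 members had an unadjusted p under 0.05, as did 21.7%, 13.1% and 14% of all tested genes. In NCAC against mock, 1 of 7 was called at 2 weeks (8.71%) and 0 of 7 at 4, 6 and 8 weeks (0% of all tested genes in each), with no member at an unadjusted p under 0.05 in those weeks, against 0.614%, 6.58% and 4.38% of all tested genes. In CAC against NCAC, 1 of 7 was called at 8 weeks (6.02%) and 0 of 7 at 2 weeks (0%), at 4 weeks (0.0069%) and at 6 weeks (9.65%), where 0, 1 and 1 members had an unadjusted p under 0.05, as did 4.24%, 16.3% and 28.3% of all tested genes. For the change of the CAC minus mock difference, 1 of 7 was called from 2 to 8 weeks (1.32%) and 0 of 7 from 4 to 8 and from 6 to 8 weeks (0% each), with 1 and 0 at an unadjusted p under 0.05, against 9.34% and 1.28% of all tested genes. The shares of called genes move widely when single libraries are left out, as the ranges given with the alternatives show. The median difference of the members in CAC against mock at 8 weeks was 0.03, against 0.02 over all tested genes. CAC and NCAC are compared with the same mock libraries, so these comparisons are not independent of each other.

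**Figure D5:**
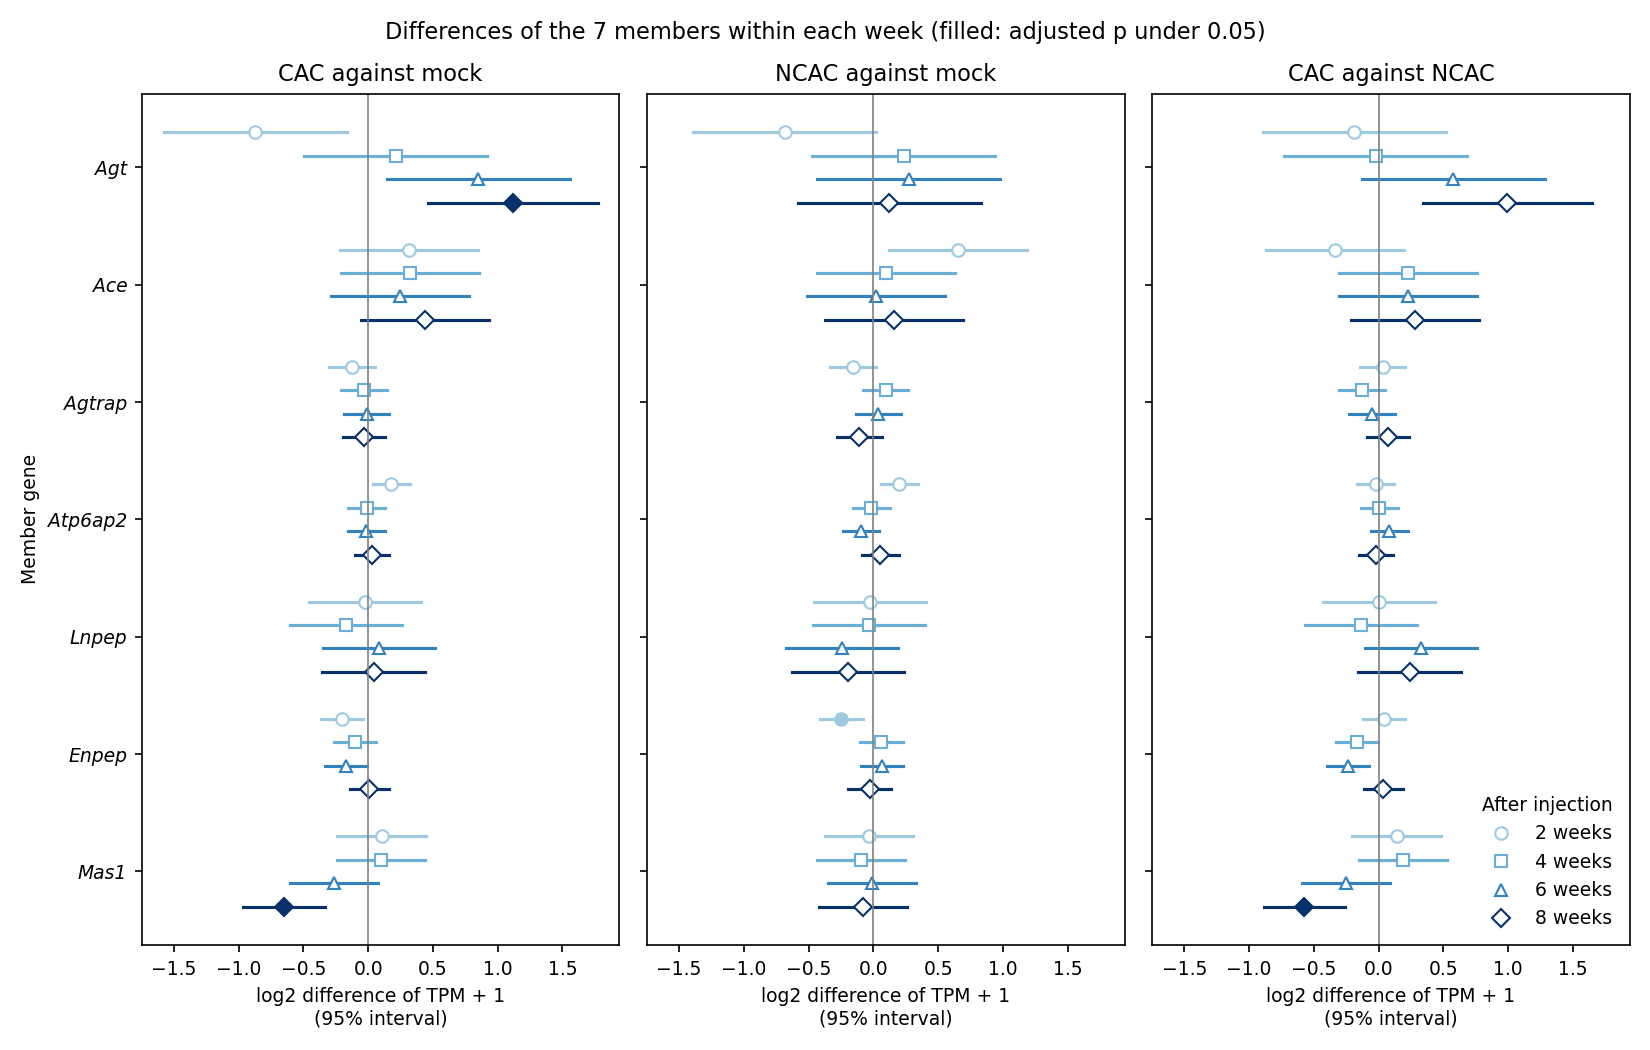
Log2 differences of the 7 members with 95% intervals, CAC against mock (left), NCAC against mock (middle) and CAC against NCAC (right), weeks 2 to 8 from top to bottom within a gene; filled symbols passed an adjusted p under 0.05. The filled symbols are Agt and Mas1 in CAC against mock at 8 weeks, Mas1 in CAC against NCAC at 8 weeks and Enpep in NCAC against mock at 2 weeks.

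Of 20 further genes of the system, 9 passed the filter on level. Ren1, the renin that starts the cascade, averaged 0.11 TPM and was listed at 0 in 13 libraries. The angiotensin II receptor genes Agtr1a, Agtr1b and Agtr2 averaged 0.57, 0.09 and 0.43 TPM, all below the level tested. In CAC against mock at 8 weeks 0 of the 9 were called (limma), and 2 had an unadjusted p under 0.05, the peptidase genes Nln (-0.14 ± 0.06) and Prcp (-0.25 ± 0.11), named after their values were seen. Over all tested genes 22.4% had such a p in that comparison. The differences of the 9 ran from -0.25 to 0.10. In NCAC against mock at 2 weeks 0 of the 9 were called and 3 had an unadjusted p under 0.05, as did 27.3% of all tested genes.

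The tested protein-coding genes whose log2(TPM + 1) followed a member most closely over the 62 libraries were picked by Pearson r, the 5 highest for each. For Agt these were Sparc (0.89), Pgm2 (0.857), Tppp3 (0.814), Itih3 (0.812) and Ddc (0.795), and without the 3 libraries that stand apart r was 0.736 to 0.865. For Ace they were Col8a1 (0.883), Lbp (0.861), Clic6 (0.841), Wfdc2 (0.818) and Igf2 (0.815), of which Clic6 is on the choroid plexus list and Igf2 on the meningeal fibroblast list. For Mas1 the values were lower, with Cspg5 (0.628), Ddit4l (0.609), Rab7b (0.605), Rasgef1c (0.602) and Tmem44 (0.601). Atp6ap2 was followed by Rnf14 (0.922) and Sucla2 (0.914), Lnpep by Klhl11 (0.947) and Tnks (0.936), Enpep by Casq2 (0.607) and the endothelial markers Cdh5 (0.582), Tek (0.528) and Tie1 (0.525), and Agtrap by Aldh9a1 (0.611) and Hcn4 (0.591). Libraries share depth, lane and tissue composition, so these are descriptions without a test.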

How the data were processed

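The authors deposited 1 table of TPM values, with 47643 genes in rows and the 62 libraries in columns. Per the submitters' processing notes the build was mm10, and libraries were made with a stranded mRNA kit, per the labels' protocols. How reads were aligned, quantified and annotated, and if strand was counted, is not given in the sources used here. Library totals are lost in TPM, so depth was read from the step size between low values, of which 86.3% of 207440 were whole reads within 0.05, and the precision it gives is described by the spread of the libraries.

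The 14491 genes averaging 1 TPM or more were fitted as log2(TPM + 1) over the 12 groups (50 residual degrees of freedom) with limma 3.58.1 under R 4.3.3, using its moderated variances with a trend. Fold changes on this scale understate those of low genes such as Enpep. Benjamini-Hochberg adjustment of p-values ran over all tested genes separately for the 15 comparisons, and genes below 0.05 were called. The model was also tested on simulated data with independent noise for each gene. Shared tissue composition, lanes and outlying libraries were not simulated, so that test does not speak to them. Marker lists were summarised per library as the mean log2(TPM + 1) of their tested genes. Gene coordinates are from GENCODE vM21 (GRCm38) and promoters from RefSeq (GRCm38.p6).

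The members and lists were chosen with earlier results of these data known. Named genes followed a rule: all 7 members, the levels of the defining further genes of the system and those called within a week, and up to 4 genes of each marker list with the lowest p in CAC against mock at 8 weeks, besides Prkcd and Pmch. The labels' replicate numbers did not pair libraries: the median correlation of deviations from the group means was 0.005 for the same number and -0.008 for different numbers. Alternatives were TMM scaling (a trimmed mean of ratios), a pseudocount of 0.1, all genes without a filter, robust moderation, a replicate block, a fit of the compared groups alone, lane as a term at 4 weeks, Prkcd and Pmch as terms, and leaving out single libraries or the 3 that stand apart. The 3 that stand apart were picked by marker values in these data, and CAC at 8 weeks replicate 3 is among them. Added after seeing the data were leaving out libraries with Prkcd or Pmch over 4 times its median, and choroid plexus and striatum scores as terms. Some results are not reported here.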

Additional observations from a re-analysis of the deposited data

Results flagged for a closer look

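In single groups, 4 libraries lay far from the rest of their group in a member. Agt was 80.1 TPM in CAC at 6 weeks replicate 1, against 18.6 to 35.1 TPM in the other 4, and this library had Pmch at 155 TPM. Ace was 25.5 TPM in NCAC at 8 weeks replicate 5, against 14.2 to 15.4 TPM in the others, with choroid plexus markers at 3.84 against 3.12 to 3.70. Mas1 was 9.05 TPM in NCAC at 2 weeks replicate 3, against 12.4 to 13.7 TPM in the others. Mas1 was 7.49 TPM in mock at 2 weeks replicate 5, against 13.4 to 14.5 TPM in the others, and this library had Prkcd at 113 TPM and Pmch at 352 TPM. The screen covered 84 sets of values, 1 for each of the 7 members in each of the 12 groups. A rate of 1 in 20 would mark 4.2 of them if values were normally spread and the sets independent. The sets share libraries, so no verdict on chance is drawn from the count of 4.

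The CAC minus mock difference of Agt itself differed between weeks, by 1.99 between 2 and 8 weeks. The highest mock library of 2 weeks, replicate 5, enters this value, and without it the change was 1.56 and no longer passed (limma, adjusted p = 0.0945).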

How the results depend on the processing

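Over 2408 recalculated member differences, 2347 kept their side of the threshold, 34 lost a call and 27 gained a call. No called difference turned its direction, and 176 uncalled differences changed sign. Only a difference called in the fit described above can lose a call, so 34 is not a share of 2408. The Mas1 call in CAC against NCAC at 8 weeks was lost in 7 of 22 alternatives. The Enpep call in NCAC against mock at 2 weeks was lost in 13 of 20. The Agt change from 2 to 8 weeks lost its call in 9 of 32. Mas1 in CAC against mock at 8 weeks was called in 22 of 22 alternatives (adjusted p of 7.06e-05 to 0.0456), and Agt in 17 of 22 (1.00 to 1.28, adjusted p of 0.00106 to 0.102). With the replicate block, 1 member was called in CAC against mock at 8 weeks, and 0 in NCAC against mock at 2 weeks, in CAC against NCAC at 8 weeks and in the change from 2 to 8 weeks. CAC replicates 6 and 7 of 8 weeks have numbers that no other group has, so they do not enter the blocked contrast, and the numbers pair no libraries.

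Under other settings the counts of called members moved as follows, and the cause was not tested. In CAC against mock at 2 weeks 1 member was called with Prkcd and Pmch as terms, and with choroid plexus and striatum scores 1 was called at 6 weeks and 3, with Ace added, at 8 weeks. In NCAC against mock at 2 weeks 0 were called with no filter on level, with the compared groups alone, without libraries high in Prkcd or Pmch and with choroid plexus and striatum scores, and 2 with TMM scaling and with Prkcd and Pmch as terms. In CAC against NCAC at 6 weeks 1 was called with TMM scaling, 1 without the 3 libraries that stand apart and 2 with choroid plexus and striatum scores. In CAC against NCAC at 8 weeks 0 were called with the compared groups alone, 2 with Prkcd and Pmch as terms, 2 without the 3 libraries that stand apart and 3 with choroid plexus and striatum scores. In the change from 2 to 8 weeks 0 were called with no filter, with the compared groups alone, with Prkcd and Pmch as terms and without libraries high in either, and 3 with choroid plexus and striatum scores.

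Leaving out 1 library at a time gave 0 to 1 called members in CAC against mock at 2 weeks, 1 to 2 at 8 weeks, 0 to 2 in NCAC against mock at 2 weeks, 0 to 1 in CAC against NCAC at 6 weeks, 0 to 2 at 8 weeks, and 0 to 2 in the change from 2 to 8 weeks. Over all tested genes the same step gave 723 to 1763 calls in CAC against mock at 8 weeks (1247 with all libraries), 78 to 1234 at 2 weeks (620), 1 to 760 at 4 weeks (6) and 54 to 407 at 6 weeks (236). It gave 129 to 1900 in NCAC against mock at 2 weeks (1262), and in CAC against NCAC 0 to 1566 at 4 weeks (1), 342 to 2508 at 6 weeks (1399) and 407 to 1640 at 8 weeks (873). In the change from 2 to 8 weeks it gave 52 to 356 (191). The highest counts at 4 weeks came without CAC replicate 5, and the lowest at 2 weeks without CAC replicate 1 and without NCAC replicate 2. The estimated depth was alike in all libraries, so low levels limit Enpep more than the other members.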
